A study of Mus musculus with 6 samples.

Results

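The subject is the baseline transcriptome of primary mouse hepatic stellate cells in culture, as given by the 3 vehicle samples of a series of 6. These samples were chosen by their labels alone, as the libraries named A, B and C of the control group. Stellate cells are the pericytes of the liver sinusoid. They lie between hepatocytes and endothelium, store vitamin A as retinyl esters in lipid droplets and send hepatocyte growth factor and bone morphogenetic proteins to their neighbours. On injury, and also when placed on plastic, they are known to spread, to gain contractile filaments and to secrete collagen, a change known as activation.

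The cells came from wild-type female mice of the C57BL/6JBomTac substrain, whose age is not given in the sources used here. At 2 days after isolation the vehicle dimethyl sulfoxide (1:1000) was added to the medium for 3 h, the medium was then replaced, and RNA was taken 21 h later, so that the cells had been outside the animal for 3 days. The other 3 samples of the series received forskolin, an activator of adenylyl cyclase, and are not described here. No freshly isolated cells enter the description, so the levels describe cells in culture and carry no comparison with the liver. The labels do not say whether A, B and C are separate animals or separate cultures, so each SD measures only the spread between these libraries.

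Polyadenylated RNA was sequenced, and the deposited table gives an estimated read count for each of 24940 genes. The counts summed to 13729745.5 in A, 15090262.5 in B and 13001358 in C. Each count was divided by the exon length that the table gives for the gene and scaled to transcripts per 1000000 (TPM), a unit in which levels of different genes can be set side by side. A total of 13091 genes (52.5% of the rows) reached 1 TPM in all 3 libraries and 6287 had no count in any. The share of 52.5% is the background for every count of list members at 1 TPM given below. The libraries resembled each other closely, with Pearson's r of log2(TPM + 1) across genes between 0.9945 and 0.9948. On the Y chromosome, 50 of 51 rows had no count in any library, and the remaining row was Erdr1. No gene of the mitochondrial genome is among the rows analysed.

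A feature of the counts bears on every high level below. In genes with 0.05 to 0.2 counts per base of exon, the median ratio of the count in B to that in A was 1.12, and it fell step by step to 1.04 in the 44 genes with 4 or more counts per base, while the column totals stood at a ratio of 1.10. The ratio of C to A moved the other way, from 0.936 to 0.955. The deepest library thus gained fewer reads in densely covered genes than in sparse ones, and the densest gene, Actb, carried only 7.6 counts per base. Whether the number of reads per position was limited in the processing is not given in the sources used here, and its part in these levels was not tested. The size of the gap between an abundant and a sparse gene is therefore uncertain, as is the order of abundant genes with similar levels.

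**Figure D1:**
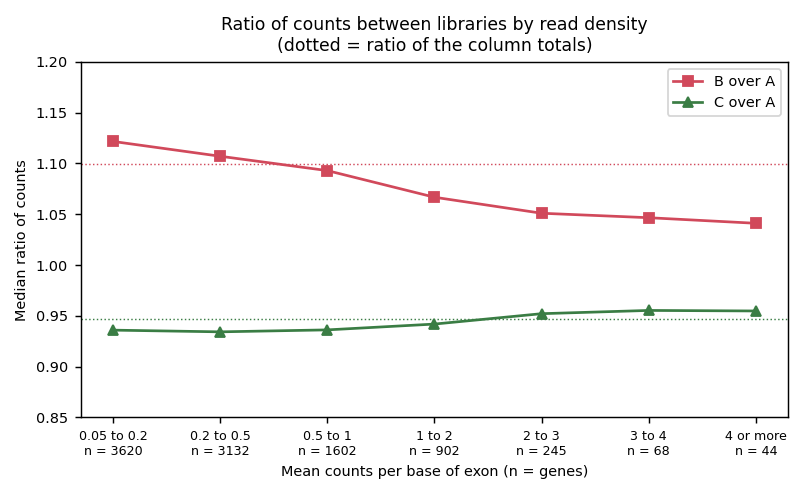
Median ratio of counts between libraries (vertical axis, B over A in red squares and C over A in green triangles) for genes grouped by mean counts per base of exon (horizontal axis, number of genes under each group). The B over A ratio falls from 1.12 in the sparsest group to 1.04 in the densest, across the dotted ratio of the column totals at 1.10.

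The most abundant transcript was Actb, the cytoplasmic actin of stress fibres and lamellipodia. It stood at 1552, 1501 and 1548 TPM in A, B and C (mean 1533 ± 28.5, SD, n = 3). Ftl1, the ferritin light chain, followed at 1365 ± 27.7 TPM. Vim, the intermediate filament protein of mesenchymal cells, came next at 1238 ± 36.6 TPM. Then came Eef1a1 (1190 ± 39.2 TPM), the elongation factor that brings aminoacyl-tRNA to the ribosome, and Ctgf (1162 ± 23.4 TPM), a secreted matricellular protein and a known target of the coactivator YAP. Both ferritin and elongation factor transcripts share long stretches with other loci, as only 20.7% of the 50-base windows of Ftl1 and 41.1% of those of Eef1a1 were unique among annotated transcripts, so their levels are less certain than that of Vim.

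The next ranks were mostly held by secreted proteins. Sparc, a collagen-binding matricellular protein, measured 1098 ± 20.9 TPM, and Thbs1, the latent TGF-beta activator thrombospondin, 1094 ± 29.4 TPM. Tnc, tenascin C, stood at 1050 ± 30.7 TPM, and Tinagl1, a secreted basement membrane protein, at 1035 ± 28.5 TPM. Fth1, the ferritin heavy chain, lay among them at 1101 ± 44.5 TPM. The ranges of Sparc, Thbs1 and Fth1 overlapped over the 3 libraries, as did those of Tnc and Tinagl1, so these neighbours have no firm order. Tnc also overlapped Thbs1 in range, but lay below it in each of the 3 libraries. Of the 10 highest genes by mean, 9 were among the 10 highest in every library, and of the 100 highest, 97 were among the 100 highest in every library.

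No gene took a large part of all TPM as measured. These shares rest on densely covered genes, so the limit given above bears on them too, and its part in them was not tested. The 10 most abundant genes held 1.2% ± 0.0291 of all TPM (SD, n = 3), the 100 most abundant 8.26% ± 0.217 and the 1000 most abundant 40.1% ± 0.679. Counted without the division by length, the 10 highest genes held 2.02% of the reads, and only 38 of the 100 highest genes by TPM were also among the 100 highest by reads. The median length of the 100 highest genes was 1896 bases, against 2806 bases over all genes at 1 TPM or more. Library B was the lowest in 39 of the 40 most abundant genes and C the highest in 33, a pattern that goes with the ratios by read density given above.

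**Figure D2:**
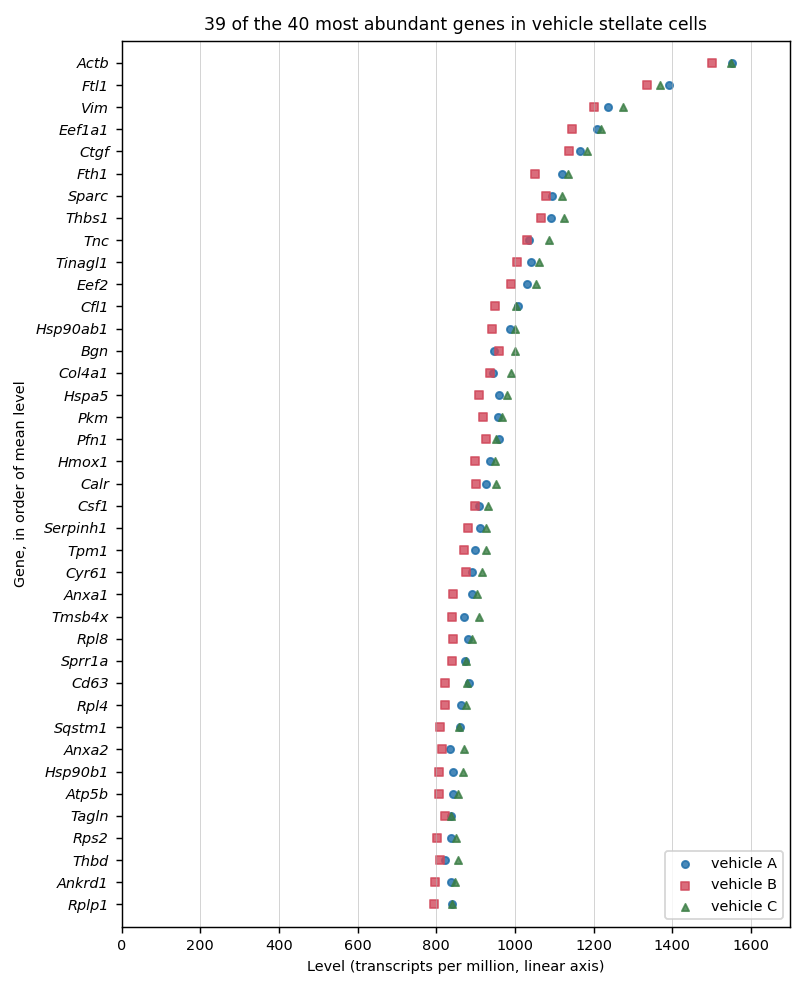
Level of 39 of the 40 most abundant genes (vertical axis, in order of mean, with 1 gene not shown) in TPM on a linear axis, with 1 point for each of the libraries A (circle), B (square) and C (triangle). Actb is highest at a mean of 1533, Rplp1 closes the list at 825, and B is the lowest library in every gene shown other than Bgn.

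Among the rest of these 40 genes, housekeeping and secretory functions were mixed with genes of the wound response. The stress and iron genes included Hmox1, heme oxygenase (927 ± 26.8 TPM), and Sqstm1, the autophagy receptor p62 (843 TPM). The signalling proteins included Csf1, the macrophage growth factor, at 910, 898 and 931 TPM, and Cyr61, like Ctgf a CCN protein (894 ± 21.0 TPM). Ankrd1, a nuclear and sarcomeric ankyrin-repeat protein that also responds to YAP, stood at 827 ± 26.6 TPM. Sprr1a, a cornified-envelope protein that is also known from regenerating neurons, reached 863 ± 20.7 TPM, and Thbd, the thrombin receptor thrombomodulin, 829 ± 22.8 TPM. Each of these genes stood at 797 TPM or more in all 3 libraries. The endoplasmic reticulum chaperones Hspa5, Calr, Serpinh1 and Hsp90b1 were in the list too, at 950, 926, 906 and 839 TPM.

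The 6 markers of the cell type were all present in every library. On mm10, Col1a1 spans chr11:94936224-94953042 (plus strand), Acta2 chr19:34240336-34255373 (minus), Des chr1:75360292-75368579 (plus), Pdgfrb chr18:61045150-61085067 (plus), Hgf chr5:16553495-16619439 (plus) and Lrat chr3:82892582-82903974 (minus). Col1a1, the alpha1 chain of type I collagen, was highest at 711, 721 and 740 TPM (mean 724 ± 14.8, SD, n = 3), rank 71 of all genes. Acta2, the smooth muscle actin that defines the myofibroblast, stood at 523, 514 and 531 TPM (522 ± 8.50), rank 173. Des, the muscle-type intermediate filament desmin, stood at 283, 299 and 294 TPM (292 ± 8.32), rank 682. These values did not overlap between the 3 genes.

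Pdgfrb, the receptor for the mitogen PDGF-BB, measured 185, 206 and 195 TPM (195 ± 10.2). Hgf, hepatocyte growth factor, measured 186, 199 and 199 TPM (195 ± 7.30). The ranges of Pdgfrb and Hgf overlapped, and their order could not be set. Lrat, the enzyme that makes retinyl esters and a defining gene of the quiescent stellate cell, was far below the other 5, at 27.8, 29.9 and 27.6 TPM (28.4 ± 1.27), rank 7177. The Col1a1 level was 25.5 ± 1.34 times the Lrat level within a library. Read density differed between them, at 3.59 counts per base in Col1a1 and 0.141 in Lrat, so this ratio carries the limit on densely covered genes. The rank of Col1a1 was 114 when 200 bases were taken off each length, and 10 by reads without a length correction, where Pdgfrb moved from rank 1321 to 357.

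The transcripts of retinoid handling were unequal around Lrat. This pathway takes up retinol, binds it in the cell, esterifies it for storage and oxidises it to retinoic acid. Of 29 retinoid genes, 23 reached 1 TPM in all libraries. Bco1, the dioxygenase that cleaves beta-carotene to retinal, was highest at 689, 682 and 720 TPM (697 ± 20.3), 24.5 ± 1.65 times the level of Lrat. Aldh1a1, which oxidises retinal to retinoic acid, stood at 430 ± 9.82 TPM. Cyp26b1, which breaks retinoic acid down, measured 182 ± 6.26 TPM.

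The receptor Rarb, itself a classical target of retinoic acid, measured 271, 268 and 267 TPM (269 ± 1.80), and its partner Rxra 116 ± 3.38 TPM. Exons of other genes, most of all the opposite-strand gene Top2b, cover 38.4% of the Rarb exons. Because the labels do not state that strand was kept, reads of Rarb and Top2b could not be told apart there. Stra6, the membrane receptor for retinol-binding protein, and Bco2 had 0 counts in all 3 libraries, where 3 counts over the libraries would give 0.0661 and 0.0984 TPM. The lipid-droplet coat gene Plin2 stood at 517, 491 and 514 TPM (507 ± 14.6), and 19 of 27 lipid-droplet genes reached 1 TPM. Pparg, the adipogenic nuclear receptor known from quiescent stellate cells, was near 0, at 1.15, 0.398 and 0.306 TPM.

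A list of 36 genes known from quiescent stellate cells and a list of 40 known from activated ones were both largely present. Of the quiescent list, 35 genes reached 1 TPM in all libraries, with a median member level of 73.6 TPM and a summed share of 0.538%, 0.561% and 0.559% of all TPM. Of the activated list, 36 genes did, with a median of 318 TPM and a share of 1.72%, 1.72% and 1.77%. The median over all rows was 2.25 TPM. These counts describe 1 condition and carry no direction of change.

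Within the quiescent list the highest members were extracellular or secreted. Ecm1, a glycoprotein that restrains latent TGF-beta, stood at 720 ± 18.9 TPM and the proteoglycan decorin, Dcn, at 716 ± 19.6 TPM. Bmp10, a ligand of the ALK1 receptor on endothelial cells, stood at 554, 562 and 577 TPM (564 ± 11.8). Gdf2, which encodes the related ligand BMP9, was lower at 68.5 ± 2.20 TPM, and the ratio of Bmp10 to Gdf2 was 8.25 ± 0.240. Cxcl12, the chemokine of perivascular niches, measured 357 ± 3.36 TPM. Prelp, a basement membrane proteoglycan, varied more, at 293, 362 and 337 TPM. Gfap, the glial filament gene often used to mark rat stellate cells, averaged 0.771 ± 0.484 TPM and was the sole member of the list that missed 1 TPM in some library, while the neural-type filament Nes stood at 367 ± 7.81 TPM.

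Transcription factors of the mesenchymal lineage were present at a middle level. Klf6, an early zinc-finger gene of stellate activation, measured 258 ± 2.05 TPM. Tcf21, a helix-loop-helix factor of mesenchymal progenitors, measured 243, 244 and 233 TPM (240 ± 6.45), and Foxf1, a forkhead factor of visceral mesoderm, 191 ± 9.48 TPM. The septum transversum factors Hand2 and Gata4 stood at 140 ± 4.40 and 137 ± 5.53 TPM, and Lhx2, whose loss is known to activate stellate cells, at 103 ± 4.16 TPM. The mechanosensing partners Yap1 and Tead1 measured 197 ± 2.07 and 158 ± 5.96 TPM. Wt1, a factor of mesothelium and of the developing stellate lineage, was at 1.5 ± 0.370 TPM. Myocd, the smooth muscle coactivator, had counts in library C alone and averaged 0.00706 TPM.

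**Figure D3:**
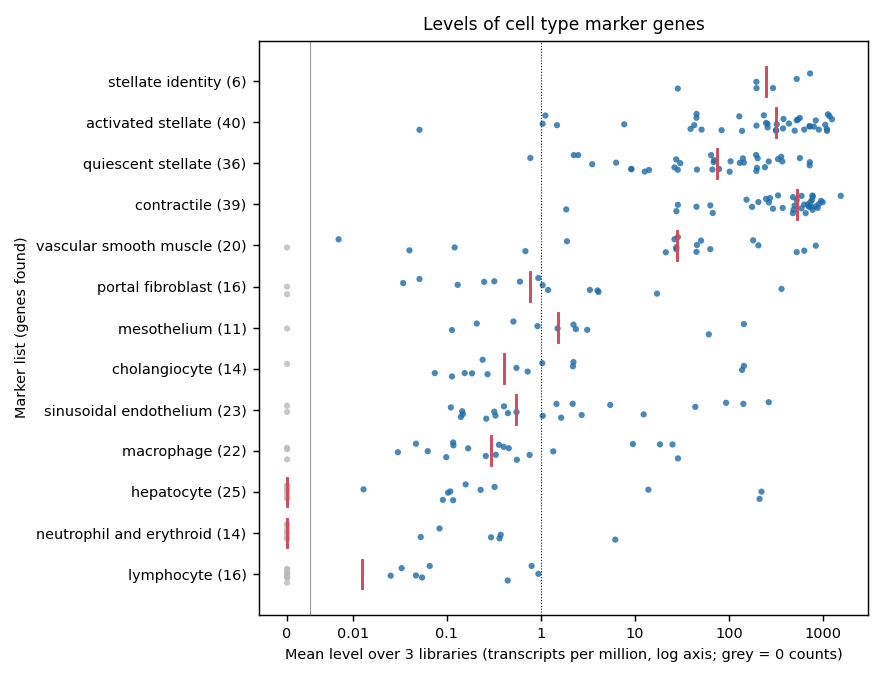
Mean level over the 3 libraries (horizontal log axis, TPM) of each gene in 13 marker lists, with red bars at list medians, grey points for genes with 0 counts and a dotted line at 1. The stellate, contractile and vascular smooth muscle lists sit mostly above 10, whereas the medians of the hepatocyte list and of the neutrophil and erythroid list are 0.

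Markers of hepatocytes, macrophages and lymphocytes were mostly near 0. Those of vascular smooth muscle, described below with the contractile genes, were not. In bulk RNA, fewer cells of a type and less RNA per cell cannot be told apart. Of 25 hepatocyte genes, 14 had 0 counts in all libraries, among them Alb, Cyp2e1, Cyp3a11, Fga, Hnf4a and Serpina3k, and for Alb 3 counts over the libraries would give 0.0989 TPM. The 3 members at 1 TPM or more were Ass1 (221 ± 3.0 TPM), Trf (210 ± 10.3 TPM) and Apoa2 (13.9 ± 0.735 TPM). Argininosuccinate synthase, encoded by Ass1, and transferrin, encoded by Trf, made up most of the list's 0.0446% of TPM. Both are uncertain, since 44.8% of the 50-base windows of Ass1 and 20.2% of those of Trf were unique among annotated transcripts. Exons of other genes, most of all a same-strand predicted gene model at its own locus, cover 63.5% of the Trf exons. Windows shared with that model count as not unique, so the low share of Trf does not show that reads came from elsewhere.

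Of 22 macrophage genes, 5 reached 1 TPM in all libraries. Lyz2 stood at 23.7, 32.8 and 29.2 TPM, Cd68 at 29.0, 25.0 and 21.0 TPM, Cd14 at 18.4 ± 1.95 TPM and Csf1r at 9.48 ± 0.192 TPM. The Kupffer cell genes Clec4f, Vsig4 and Timd4 averaged 0.0301, 0.117 and 0.0626 TPM, and Marco, Cd163 and Ccr2 had 0 counts. The list summed to 84.9, 89.0 and 85.5 TPM in A, B and C, or 0.00865% of all TPM (0.00488% of reads). None of 16 lymphocyte genes found reached 1 TPM in all libraries, and their sum ran from 1.85 to 2.79 TPM.

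Endothelial markers split. The junction genes Pecam1 and Cdh5, which define endothelium, were at 0.319 ± 0.168 and 0.262 ± 0.189 TPM, and Kdr, the main VEGF receptor, at 1.64 ± 0.192 TPM. Plvap, the diaphragm protein of fenestrae, stood at 244, 279 and 268 TPM, the adhesion gene Esam at 142 ± 6.42 TPM and Flt4, the receptor for VEGF-C, at 92.8 ± 2.99 TPM. Plvap is in the quiescent stellate list as well. In all, 10 of 23 members (43.5%) reached 1 TPM in all libraries, against 52.5% of all rows. The list summed to 544, 597 and 572 TPM, of which Plvap was 46.1%.

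The summed levels of epithelial and mesothelial lists were each carried by few genes. Krt19, a keratin of bile duct and mesothelium, stood at 153, 136 and 142 TPM, while Krt18, another type I keratin of simple epithelia, was at 2.21 ± 0.194 TPM, 65.3 ± 9.40 times lower. The type II keratins Krt7 and Krt8, with which such keratins pair, averaged 0.185 and 0.113 TPM, and Epcam 0.270 TPM. Of 51 keratins, 30 had 0 counts. Spp1, osteopontin, the other high member of the cholangiocyte list, is also made by activated stellate cells and stood at 137 ± 5.43 TPM. Of 11 mesothelial genes found, 6 (54.5%) reached 1 TPM in all libraries, near the 52.5% of all rows. Krt19 made up 66.7% of the sum of that list and Pdpn stood at 60.8 ± 4.17 TPM. The mesothelial genes Msln and Upk3b were at 0.509 and 0.208 TPM. In the portal fibroblast list, 5 of 16 genes (31.25%) reached 1 TPM in all libraries, and Fbln2 (360 ± 8.53 TPM) made up 91.6% of the sum. Ly6a followed at 17.1 ± 4.30 TPM, then Cd34 at 4.08 and Entpd2 at 3.99 TPM. Thy1 was at 1.04 and Eln, elastin, at 0.937 TPM.

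The contractile list of 39 genes had every member at 1 TPM or more in all libraries, against 52.5% of all rows, and 33 at 100 TPM or more. The lists were chosen with earlier results of these data known, so such full counts may reflect that choice. It held 2.02%, 1.98% and 2.06% of TPM in A, B and C. After Actb came the actin-severing protein Cfl1 at 986 ± 32.3 TPM and the monomer-binding protein Pfn1 at 946 ± 17.9 TPM, then the tropomyosin Tpm1 and the monomer-binding Tmsb4x at 872 ± 34.0 TPM. Among the filament-binding proteins of smooth muscle, Tagln stood at 838, 822 and 838 TPM (833 ± 9.04) and the regulatory light chain Myl9 at 628 ± 9.25 TPM. Exons of other genes, most of all an opposite-strand predicted gene model, cover 67.9% of the Tagln exons, so part of the Tagln count is uncertain.

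The actin family was ordered. Actb exceeded Acta2 by 2.94 ± 0.0297 times within a library, and Acta2 was above Actg1 (483 ± 13.9 TPM) in each of the 3. Actg2, the enteric smooth muscle actin, stood at 63.0 ± 1.86 TPM and the skeletal actin Acta1 at 5.87 ± 0.931 TPM, while the cardiac actin Actc1 averaged 0.111 TPM. Only 43.5% of the 50-base windows of Actg1 were unique, against 85.6% of those of Actb. The tropomyosins ran from Tpm1 (898 ± 28.5 TPM) over Tpm4 (774 ± 25.2 TPM) and Tpm3 (331 ± 6.04 TPM) to Tpm2 (247 ± 3.71 TPM), and no ranges met. Of 20 vascular smooth muscle genes, 15 (75%) reached 1 TPM in all libraries, against 52.5% of all rows, and 5 reached 100 TPM. The list includes Tagln, Myl9 and Acta2, had a median member level of 28.0 TPM and held 0.270% of TPM. Smtn stood at 205 ± 5.79 TPM and Mustn1 at 180 ± 6.19 TPM. Calponin Cnn1 was lower at 41.3, 51.4 and 42.1 TPM, as was the smooth muscle myosin Myh11 at 27.5 ± 0.839 TPM.

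Promoter sequence was set beside these levels, because actin-filament genes are known to be driven by serum response factor at CArG boxes. A CArG box here is CC, a run of A or T, and GG, a form that reads the same on both strands. RefSeq promoter windows (GRCm38.p6, 250 bases before to 50 after the start) were matched for 34 of the 39 contractile genes. No window was matched for Actb or Tagln, so their promoters were not searched. Of the 34 windows, 4 (11.8%) held a CArG box, against 1.51% of all 18098 windows and 1.27% of those of genes at 1 TPM or more. The 4 are shown 5′ to 3′ with the CArG box in capitals, to let the shared letters and their flanks be compared. The stretches lie at chr10:79988524-79988573 (plus strand) for Cnn2, chr2:156775283-156775332 (plus) for Myl9, chr11:120348556-120348605 (minus) for Actg1 and chr14:20929151-20929200 (plus) for Vcl.
Cnn2: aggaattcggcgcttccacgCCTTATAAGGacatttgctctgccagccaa
Myl9: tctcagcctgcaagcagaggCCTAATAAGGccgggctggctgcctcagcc
Actg1: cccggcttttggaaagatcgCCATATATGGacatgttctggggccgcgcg
Vcl: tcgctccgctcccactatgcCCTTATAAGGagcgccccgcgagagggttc

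Cnn2 and Vcl carried the same 10 letters, and the boxes began 56 bases before the start in Cnn2, 90 in Actg1, 161 in Myl9 and 227 in Vcl. The levels of these genes were 713 TPM for Cnn2, a calponin of non-muscle cells, 628 for Myl9, 483 for Actg1 and 371 for Vcl, the focal adhesion protein vinculin. Acta2, whose level lay within that range, had no match to this strict form in its window. Its promoter is known to carry CArG elements that depart from the strict form, and such departures were not searched for. Its last 150 bases before the start (chr19:34255374-34255523, minus strand) are shown as the marker gene's promoter, in lower case throughout.
Acta2: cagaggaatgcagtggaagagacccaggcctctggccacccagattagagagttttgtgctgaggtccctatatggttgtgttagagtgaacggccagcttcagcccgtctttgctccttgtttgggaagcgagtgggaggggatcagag

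A second motif, TATAAA, was searched on either strand in the windows of the most abundant genes. It was in 18 of the 75 windows found for the 100 highest genes (24.0%), in 12.8% of all windows and in 6.64% of those of genes at 1 TPM or more. On the coding strand and beginning 40 to 20 bases before the start, where a TATA box usually lies, it was in 6 of the 75 (8.0%), namely Vim, Anxa1, Mmp10, Ecm1, Bco1 and Ckb, against 2.66% of all windows and 1.2% of those of genes at 1 TPM or more. GGGCGG, the core of an Sp1 site, was in 76.0% of the 75 windows, in 85.3% of the contractile ones, in 66.8% of those of genes at 1 TPM or more and in 47.1% of all, on either strand. For 5 of the 6 the 50 bases before the start follow, with TATAAA in capitals, to show the letters around the box. Their distance from the start was set by the search. They lie at chr2:13574261-13574310 (plus) for Vim, chr19:20390672-20390721 (minus) for Anxa1, chr9:7502292-7502341 (plus) for Mmp10, chr3:95739570-95739619 (minus) for Ecm1 and chr8:117095815-117095864 (plus) for Bco1.
Vim: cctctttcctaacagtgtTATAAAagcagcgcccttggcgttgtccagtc
Anxa1: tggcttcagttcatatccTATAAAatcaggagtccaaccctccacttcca
Mmp10: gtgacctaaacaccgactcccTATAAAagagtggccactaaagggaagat
Ecm1: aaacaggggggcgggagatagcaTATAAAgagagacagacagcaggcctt
Bco1: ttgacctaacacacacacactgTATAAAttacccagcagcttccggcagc

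These matches are descriptions of letters, not of binding. Anxa1, annexin A1, a calcium-dependent phospholipid-binding protein, stood at 879 ± 31.3 TPM. Among the other 11 annexins, Anxa2 (839 ± 28.8 TPM) and Anxa5 (640 ± 23.5 TPM) came next, and the ranges of Anxa1 and Anxa2 overlapped.

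Of 44 collagen chains, 23 (52.3%) reached 1 TPM in all libraries, near the 52.5% of all rows. Together the family held 0.489%, 0.510% and 0.515% of TPM, or 1.18% of reads without the division by length. The network-forming chains of basement membrane were the highest. Col4a1 stood at 944, 937 and 991 TPM (958 ± 29.0) and Col4a2 at 764, 774 and 804 TPM (781 ± 20.5), a ratio of 1.23 ± 0.0140 within a library. Col4a1 exceeded Col1a1 by 1.32 ± 0.0202 times, in each of the 3 libraries. The fibrillar chains followed with Col5a2 at 563 ± 9.90, Col3a1 at 537 ± 16.2 and Col5a1 at 321 ± 13 TPM.

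The second chain of type I collagen, Col1a2, was lower, at 233, 269 and 263 TPM (255 ± 19.6). The ratio of Col1a1 to Col1a2 was 3.05, 2.68 and 2.81 in A, B and C. At 20 of the 44 chains the level stayed under 1 TPM in every library, and Col26a1 had 0 counts. The listed enzymes and chaperones that fold and crosslink collagen were all present, with 28 of 28 at 1 TPM or more, against 52.5% of all rows. Serpinh1, the collagen chaperone HSP47, led at 906 ± 22.6 TPM, ahead of the prolyl hydroxylase subunit P4hb at 751 ± 18.8 TPM and the cyclophilin Ppib at 490 ± 18.1 TPM. The crosslinking oxidase Lox stood at 316 ± 12.1 TPM, and Pcolce, which helps to cleave the procollagen C-propeptide, at 372 ± 4.02 TPM.

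The glycoproteins and proteoglycans around the fibrils held 1.11%, 1.14% and 1.16% of TPM, or 1.74% of reads. After Sparc, Thbs1 and Tnc came Bgn, the proteoglycan biglycan (969 ± 27.5 TPM), and Nid1, which links laminin to type IV collagen (813 ± 20.4 TPM). Laminin chains were uneven. The beta chain Lamb1 stood at 438 ± 8.81 TPM and the gamma chain Lamc1 at 317 ± 11.9 TPM, whereas the highest alpha chains, Lama1, Lama2 and Lama5, were at 27.0, 26.8 and 26.2 TPM and could not be ordered. Lamb1 was 16.4 ± 2.02 times Lama1. The alpha chains have long exon sequences and low read density, so this ratio too carries the limit given above. Of the integrin receptors for these ligands, Itgb1, the common beta subunit, was highest at 770 ± 26.7 TPM, followed by the fibronectin receptor subunit Itga5 (303 ± 5.34 TPM) and by Itgb5 (301 ± 6.46 TPM). The ranges of Itga5 and Itgb5 overlapped.

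**Figure D4:**
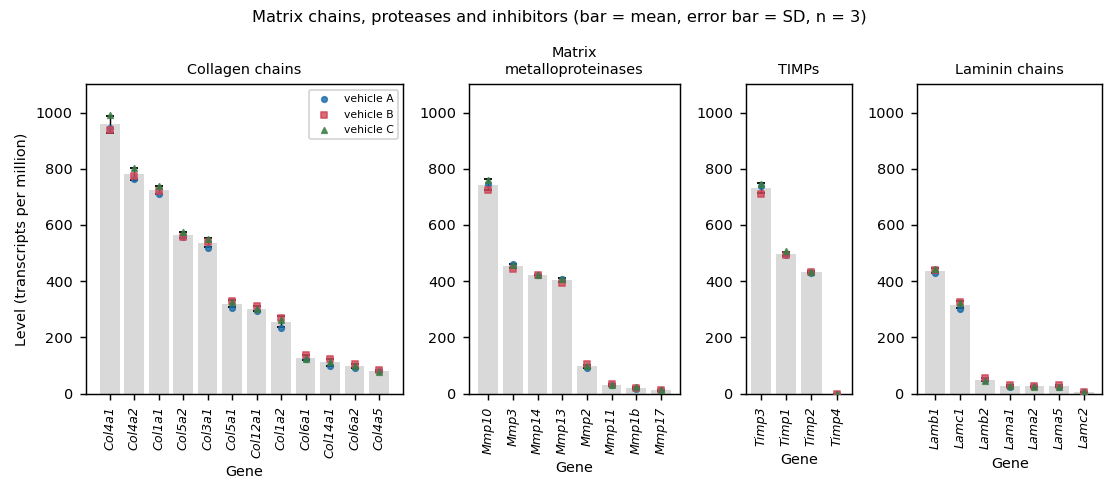
Level in TPM (vertical axis from 0) of the highest collagen chains, matrix metalloproteinases, their tissue inhibitors (TIMPs) and laminin chains, with bars for the mean, error bars for the SD of 3 libraries and 1 point per library. Col4a1 at 958 and Mmp10 at 744 are the highest of their families, and Timp4 is at 0.

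Proteases that cut matrix were expressed beside their inhibitors. Of 23 matrix metalloproteinases, 13 (56.5%) reached 1 TPM in all libraries, near the 52.5% of all rows, and 4 reached 100 TPM. Mmp10, the stromelysin 2 gene, stood at 748, 724 and 760 TPM (744 ± 18.1) and Mmp3, stromelysin 1, at 454 ± 8.28 TPM. The membrane-type protease Mmp14 measured 424, 422 and 423 TPM (423 ± 0.690) and the collagenase Mmp13 404 ± 7.42 TPM. The gelatinase Mmp2, which is activated by MMP14, was 7.64 ± 0.603 times lower than Mmp10, at 97.7 ± 5.99 TPM. Of the inhibitors, Timp3 stood at 732 ± 19.1, Timp1 at 497 ± 7.64 and Timp2 at 432 ± 2.86 TPM, with no overlap, and Timp4 had 0 counts.

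Secreted ligands were varied, with 62 of 77 growth factors and binding proteins at 1 TPM or more. After Ctgf and Csf1 came Igfbp7, an insulin-like growth factor binding protein, at 767 ± 23.3 TPM, and Fstl1, a follistatin-like glycoprotein, at 669 ± 15.9 TPM. Igfbp7 made up 91.2% of the summed level of its family, and Igfbp3 was 18.4 ± 2.0 times lower. The levels of Csf1 and Csf1r, ligand and receptor, differed 96.3 ± 2.67 times. Met, the receptor for Hgf, was at 4.98 ± 0.480 TPM, 39.4 ± 4.30 times below its ligand.

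Of 52 growth factor and cytokine receptors, 50 reached 1 TPM. Eng, endoglin, the coreceptor for BMP9 and BMP10, was highest at 567, 581 and 602 TPM (583 ± 17.8), while Acvrl1, which encodes the signalling receptor ALK1, was 38.1 ± 1.84 times lower at 15.3 ± 0.481 TPM. Axl, a receptor tyrosine kinase for GAS6, stood at 528 ± 10.3 TPM, the endocytic receptor Lrp1 at 435 ± 25.7 TPM and Il6st, the shared gp130 chain, at 315 ± 8.92 TPM. Pdgfra, the second PDGF receptor, measured 150 ± 8.47 TPM, below Pdgfrb in every library.

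Receptors for vasoactive and other small ligands were fewer, with 32 of 47 at 1 TPM or more and 6 at 100 TPM or more. These 6 were P2ry14, a receptor for UDP-glucose (403 ± 9.30 TPM), F2r, the thrombin receptor PAR1 (320 ± 2.83 TPM), the natriuretic peptide clearance receptor Npr3 (263 ± 4.68 TPM), the serotonin receptor Htr2a (153 ± 8.36 TPM), the angiotensin receptor Agtr1a (127 ± 5.95 TPM) and the calcitonin receptor-like gene Calcrl (105 ± 0.954 TPM). The second angiotensin receptor, Agtr2, had 0 counts in all 3 libraries. Among chemokines, Cxcl14 (358 ± 17.2 TPM) and Cxcl12 overlapped, and Ccl2, the monocyte attractant, stood at 128 ± 4.84 TPM. In the complement list, Masp1, a protease of the lectin pathway, alone made up 52.6% of the sum at 749, 753 and 788 TPM, and the C1 inhibitor Serping1 measured 311 ± 18.3 TPM.

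Lists of general cell functions held shares of the same order as the contractile and activated lists. The cytosolic ribosomal proteins held 3.54%, 3.36% and 3.58% of TPM, with 83 of 87 genes at 1 TPM or more, led by Rpl8 (871 ± 25.8 TPM) and Rpl4 (853 ± 26.9 TPM). Without the length correction this share was 0.998%. Oxidative phosphorylation genes of the nucleus held 1.90%, 1.82% and 1.87%, or 0.631% of reads, led by the ATP synthase subunit Atp5b (834 ± 25.1 TPM). Translation factors held 1.28% ± 0.0279, iron and lysosomal genes 1.10% ± 0.0236, endoplasmic reticulum chaperones 0.957% ± 0.0220 and proteasome subunits 0.948% ± 0.0185 (0.490% of reads). Lists share genes, so the shares do not add up.

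**Figure D5:**
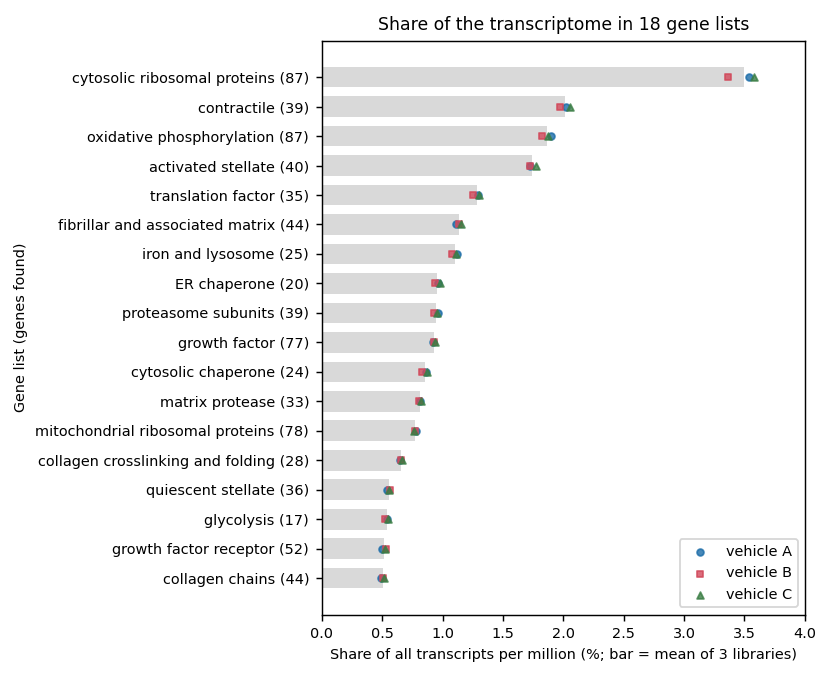
Share of all TPM (horizontal axis from 0, in percent) held by 18 gene lists, with bars for the mean of 3 libraries, 1 point per library and the number of genes in parentheses. Cytosolic ribosomal proteins hold the largest share at 3.49%, contractile genes 2.02% and collagen chains 0.505%.

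The spread between the libraries was small. The common biological coefficient of variation, the part of the spread beyond counting that edgeR estimates across genes, was 2.82% over 13001 genes. Among the 10432 genes with a mean of 100 counts or more, the median coefficient of variation (CV, the SD as a percentage of the mean) of TPM was 3.98%, 963 genes (9.23%) passed 10% and 48 (0.460%) passed 20%. At 100 to 300 counts the median CV was 7.53%, beside a Poisson CV at the mean count of 7.33%. At 3000 counts or more it was 2.29% beside 1.5%. A median CV over 3 libraries tends to lie below the CV that it estimates. The near match at low counts thus does not show that spread was counting error alone, and at high counts spread was larger than counting error. Library B was the lowest in 90 of the 100 most abundant genes. The part of the read density pattern in this spread, and in the common biological coefficient of variation, was not tested.

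The 20 most variable genes had a CV from 30.5% down to 22.1%. They were Tasp1, Slc7a4, Slc25a45, Pdcd7, Acy3, Kif2c, Ss18l1, Fmc1, Rogdi, Tiam1, Kctd21, Hyal1, Dmpk, Btn1a1, Fdxacb1, Zfp692, Foxs1, Zfp949, Cracr2b and Cep95. The first of them, the protease Tasp1, had a mean of 118 counts, and 19 of the 20 had a mean under 200. The exception was Dmpk, the kinase gene of myotonic dystrophy, with a mean of 557.5 counts and a CV of 23.3%. Foxs1, a forkhead gene of pericytes, stood at 20.02, 31.0 and 29.9 TPM. None of the marker, matrix or contractile genes described above belongs to these 20. The largest CV was 14.3% at 1000 to 3000 counts and 11.9% at 3000 or more. No gene with that many counts was thus among the 20, and their absence says little about the stability of such genes.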

How the data were processed

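STAR and HOMER and the mm10 build are named in the submitters' processing notes. In the sources used here no version, setting or annotation release is given. The deposited table holds the authors' unnormalized estimated counts (expected counts) per gene, in steps of 0.5, with 32.4% of the vehicle values not whole, together with an exon length per gene. The library kit named in the labels' protocols is not stated to keep strand. Only the 3 vehicle columns were used.

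TPM were computed as count over length, scaled to 1000000 per library (Python 3.11.15, pandas 2.3.3), and given as mean ± SD over libraries. No groups were compared and no test was run. The common biological coefficient of variation came from edgeR 4.0.16 (R 4.3.3) with an intercept alone, on counts rounded to whole numbers, after checks on simulated data. Named genes are the 40 highest by TPM, the 6 markers and up to 6 highest members of each of 54 lists. They also include the first 3 of each list of other cell types and list members at 0 counts. The last are the 20 highest CVs among genes with a mean of 100 counts or more, predicted gene models left out. Acvrl1, Cdkn1a, Ckb, Cnn2, Col1a2, Erdr1, Gata4, Gdf2, Gfap, Hand2, Krt8, Lhx2, Met, Mki67, Pdgfra, Pparg, Rn45s and Vcl were singled out after their values were seen. The members and lists were chosen with earlier results of these data known, and integrin-binding proteins were taken off the integrin list after its members were seen. Start coordinates count from 1. Alternatives were another length, no length, a count minimum of 10, a total without ribosomal protein genes and each library left out. Results of some genes that the rule names are not reported here.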

Additional observations from a re-analysis of the deposited data

How the results depend on the processing

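Every alternative below kept 13091 genes at 1 TPM or more in all libraries within 1.5 times, and none of the shares moved by over 1 SD when a library was left out. With 200 bases taken off each length, shares became 4.49% for ribosomal proteins, 2.36% for oxidative phosphorylation, 1.06% for matrix glycoproteins, 0.458% for collagens, 0.00896% for macrophage markers, 1.23% for the 10 highest genes and 8.70% for the 100 highest. As shares of reads they were 0.998%, 0.631%, 1.74%, 1.18% and 0.00488% for the first 5 of these, 2.02% and 10.2% for the 10 and 100 highest genes, 1.95% for contractile genes, 0.0305% for hepatocyte and 0.0543% for endothelial markers. With ribosomal protein genes left out of the total, collagens held 0.523%, contractile genes 2.09%, matrix glycoproteins 1.18%, hepatocyte markers 0.0462%, macrophage markers 0.00896%, oxidative phosphorylation 1.93% and the 10 highest genes 1.24%. With a mean of 10 counts or more required, macrophage markers held 0.00831%. The common biological coefficient of variation was 2.78% by library size alone, 2.79% over all genes with a count, and between 2.36% and 3.21% with a library left out.

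No paired analysis was possible because a single group is described. Depth limits genes near 1 TPM, where counts are low and the CV between libraries is high. The read density pattern limits high levels, and levels of different genes also rest on the single exon length given for each.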

Other observations

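The listed genes of cell division were all detectable, with 40 of 40 at 1 TPM or more in all libraries, against 52.5% of all rows. Pcna, the DNA polymerase clamp, stood at 264, 262 and 268 TPM, the ribonucleotide reductase subunit Rrm2 at 176 ± 3.28 TPM (SD, n = 3) and the replicative helicase subunits Mcm4 and Mcm3 at 107 ± 4.64 and 105 ± 2.89 TPM. The median member level was 33.0 TPM. Mki67, the proliferation antigen, was lower at 20.2 ± 1.27 TPM, and Cdkn1a, the p21 inhibitor of cyclin-dependent kinases, stood at 646 ± 15.6 TPM, rank 95.

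Immediate-early and inhibitor genes were also measured. Junb stood at 417, 431 and 435 TPM, and Id3, an inhibitor of helix-loop-helix factors and a target of BMP signals, at 459 ± 6.82 TPM, above Id2 (210 ± 4.74 TPM) and Id1 (202 ± 5.99 TPM). All 17 AP-1 genes reached 1 TPM, as did 13 of 17 Kruppel-like factors. Of the antigen presentation genes, B2m (719 ± 28.3 TPM), H2-D1 (518 ± 16.1 TPM) and H2-K1 (473 ± 8.69 TPM) led, and all 15 of the list reached 1 TPM. Rn45s, the precursor of ribosomal RNA, stood at 580, 698 and 647 TPM, with the largest CV among the 100 most abundant genes at 9.23%.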
